A study of Mus musculus with 2 samples.

Results

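The data described here were the transcript levels of 9 genes whose proteins build or regulate microtubules and growth cones in neurites, Mapt, Map1b, Dcx, Stmn1, Stmn2, Stmn3, Stmn4, Tubb3 and Gap43, in single cells of the postnatal mouse retina. Microtubules are polymers of alpha- and beta-tubulin that carry cargo through axons and dendrites, and their turnover sets how far a neurite extends. Mapt encodes tau and Map1b and Dcx encode other proteins that bind and stabilise microtubules. The stathmins (Stmn1 to Stmn4) bind free tubulin and destabilise the polymer, Tubb3 encodes the neuronal beta-tubulin class III, and Gap43 encodes a membrane protein of the growth cone. The 9 genes were chosen from the 30905 genes listed for each library because they belong to this group, and also because Mapt and Stmn4 had been among the genes with the lowest Mettl3-CKO to control ratios in an earlier analysis of the same cells. The ratios of Mapt and Stmn4 are therefore given as a description, and they support nothing by themselves.

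The study asked what the N6-methyladenosine (m6A) mark on mRNA, written by METTL3, does late in retinal development. Retinas were taken at postnatal day 7 from pups of 1 litter, and there were 2 libraries of droplet-based 3′ single-cell RNA sequencing. The control library pooled 2 control retinas, whose alleles were not given in more detail in the sources used here. The Mettl3-CKO library pooled 2 retinas of Six3-Cre+; Mettl3 floxed/floxed pups, in which Six3-Cre acts in RPCs from early embryonic stages, and both pools mixed cells of 2 pups. Each group was thus 1 library, and no result below has a replicate, a p-value or an error between animals. All intervals are 95% intervals of counting error only (exact Poisson for levels, conditional binomial for ratios, Clopper-Pearson for shares). Levels are UMIs (unique molecular identifiers, 1 per captured transcript) summed over the cells of a class and divided by their non-mitochondrial UMIs, per 1000000, written as CPM.

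The 3994 control and 3109 Mettl3-CKO cells analysed held 20955138 and 19957693 non-mitochondrial UMIs, with a median of 4520.5 and 5207 per cell, and 5 cell barcodes occurred in both libraries. For Mettl3 itself, 828 control UMIs gave 39.5 CPM (36.9 to 42.3) and 660 Mettl3-CKO UMIs gave 33.1 CPM (30.6 to 35.7). Because the libraries read the 3′ end of transcripts, this value does not show whether the floxed exons were present. The study reported efficient loss of METTL3 in central retinas, while whole retinas went into the libraries. It proposes that the RPCs remaining at this age lie at the retinal periphery. Any Mettl3-CKO cells that kept METTL3 could not be told from the others here. Xist, the RNA of the inactive X chromosome, was at 1.53 CPM in the control and 1544 CPM in the Mettl3-CKO cells, and the Y-linked Ddx3y was at 83.9 and 32.8 CPM. Mettl3-CKO cells thus carried Xist and Y-linked transcripts in different shares than control cells, and the main ratios were also computed for Mettl3-CKO cells with and without an Xist UMI.

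Cells were placed in classes by the UMIs of marker genes, none of which is 1 of the 9 genes. Progenitors (RPCs, 138 control and 214 Mettl3-CKO cells) carried mitotic and S-phase genes such as Mki67 and Top2a, and neurogenic cells (137 and 178) carried Neurog2, Dll1, Dll4, Atoh7 or Olig2. Precursors (570 and 521) carried Neurod4 and Otx2 with few rod transcripts. Rods (1348 and 857), cones (81 and 79), amacrine cells (32 and 32) and Müller glia (322 and 241) carried their own genes. The defining markers were found in each class, although Gad1 was at 0 in the amacrine cells of both libraries and Aqp4 had 3 and 4 UMIs in Müller glia. The bipolar cells were an exception. There the 87 control cells held 228 Grm6 and 16 Trpm1 UMIs, the markers of ON bipolar cells, while the 27 Mettl3-CKO cells held 0 of either, and 112 and 80 of their 251 bipolar marker UMIs were Pcp2 and Isl1. Levels in bipolar cells are therefore given for each library but not compared. Ganglion cell markers were nearly absent, with at most 39.1 CPM for the 7 genes together in any class of the control (cones) and 28.5 CPM in the Mettl3-CKO (cones). A total of 1179 control and 827 Mettl3-CKO cells met no limit, with medians of 1323 and 1407 UMIs, and 69 and 106 met limits of unlike classes.

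All 9 genes lie on the mouse genome build GRCm38 as single protein-coding genes, and the sequences below serve to show which of their letters bear on the comparison. METTL3 methylates the A of sequences such as GGACT. No m6A was measured in these libraries, so the letters mark only where the sequence fits. In the longest annotated coding transcript of each gene, Mapt had 10 GGACT, of which 2 lay in the coding part and 8 in the 3′ UTR, or 1.90 per kilobase. That was above 86.2% of the 21780 coding genes in the annotation, whose median was 1.01 per kilobase. Tubb3 had 3, all coding (1.61 per kilobase), Map1b had 10 in 11808 bases, Dcx had 8 in 9074 bases, and Stmn2 and Stmn4 had 1 each. Stmn1, Stmn3 and Gap43 had 0. The coding sites of Mapt and Tubb3 and the only site of Stmn4, which lay in the 5′ UTR, are shown with 10 bases on either side and with the motif in capitals.
Mapt, from base 1056 of the transcript: cagagaagctGGACTtcaaggacag
Mapt, from base 1284: tcgacatggtGGACTcaccacagct
Stmn4, from base 30: tttggaaaccGGACTgcagggctgt
Tubb3, from base 296: actatgtaggGGACTcagacctgca
Tubb3, from base 380: ccattctggtGGACTtggaacctgg
Tubb3, from base 521: cggagctggtGGACTcagtcctaga
Mapt and Stmn4 thus differed in the number of GGACT by 10 to 1, in transcripts of 5253 and 1361 bases. Per kilobase they had 1.90 and 0.73. Whether these letters play a part in the levels was not tested.

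RefSeq promoters (GRCm38.p6, 250 bases before to 50 after the start) were at hand for 4 of the 9 genes, Stmn3, Dcx, Tubb3 and Map1b. The promoters of Tubb3 and Map1b are shown because these were the members with higher levels in the Mettl3-CKO library. Capitals mark the GC box GGGCGG, the CCAAT box CCAAT, the TATA letters TATAAA and the E-boxes CAGCTG and CAGATG, each on either strand.
Tubb3, chr8:123411303-123411602, plus strand: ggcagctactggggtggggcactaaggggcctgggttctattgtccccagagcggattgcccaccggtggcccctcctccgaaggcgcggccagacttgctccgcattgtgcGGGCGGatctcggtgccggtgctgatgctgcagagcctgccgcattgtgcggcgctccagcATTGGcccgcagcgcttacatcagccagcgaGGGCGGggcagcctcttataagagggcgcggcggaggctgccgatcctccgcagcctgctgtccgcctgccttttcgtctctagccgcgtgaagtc
Map1b, chr13:99516553-99516852, minus strand: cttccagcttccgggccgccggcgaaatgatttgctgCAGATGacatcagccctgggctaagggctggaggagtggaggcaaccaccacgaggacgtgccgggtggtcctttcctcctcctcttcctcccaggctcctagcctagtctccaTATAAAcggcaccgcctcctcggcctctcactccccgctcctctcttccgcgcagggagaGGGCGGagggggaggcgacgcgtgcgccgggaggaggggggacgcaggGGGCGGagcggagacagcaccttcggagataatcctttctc
Both held 2 GC boxes, which 35.7% of 32851 promoters hold at least once, and both were rich in G and C (67.3% and 65.7%, against a median of 52.7%). Tubb3 had 1 CCAAT box, found in 37.4% of promoters, and Map1b had 1 CAGATG, found in 17.2%, and 1 TATAAA, found in 13.6%. Stmn3 and Dcx held no GC box in this window. These matches describe letters only.

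Mapt (chromosome 11, 104231390 to 104332090) was lower in the Mettl3-CKO library in progenitors, neurogenic cells, precursors and Müller glia. In progenitors, 108 UMIs gave 71.3 CPM (58.5 to 86.1) in the control, and 56 UMIs gave 25.1 CPM (19.0 to 32.6) in the Mettl3-CKO. This log2 ratio of -1.51 (-2.0 to -1.03) was the 12th lowest of 6010 genes with at least 100 UMIs. In neurogenic cells, the levels were 121.6 CPM (104 to 142) and 49.1 CPM (38.9 to 61.1), a log2 ratio of -1.31 (-1.71 to -0.91). Neurogenic cells thus had more Mapt than progenitors in each library, beyond counting error. In precursors, where Mapt was scarce, 26.5 CPM (21.5 to 32.4) stood against 14.1 CPM (10.3 to 18.8), a log2 ratio of -0.92 (-1.46 to -0.39). Müller glia had 85.2 CPM (75.0 to 96.3) in the control and 53.7 CPM (44.4 to 64.5) in the Mettl3-CKO, a log2 ratio of -0.66 (-0.99 to -0.34), which was -0.27 with cells thinned to 2000 UMIs. The intervals of the 2 libraries did not overlap in any of these classes.

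Within the control library, Mapt was not a neuron-only transcript at this age. Its level was highest in amacrine cells (156 CPM), followed by neurogenic cells, bipolar cells (105 CPM), Müller glia and progenitors, and each of these neighbours differed from the next by less than its counting interval allowed to tell. Below them came precursors, 2.69-fold (2.02 to 3.58) under progenitors, and then rods (4.91 CPM) and cones (2.90 CPM), where few UMIs were found. The amacrine cells of the Mettl3-CKO were at 97.5 CPM (63.7 to 143) from 26 UMIs, with a log2 ratio of -0.68 (-1.42 to 0.04) whose interval included 0. In the bipolar gate, Mapt had 72 UMIs in the control cells and 1 in the Mettl3-CKO cells.

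Cells thinned to 2000 UMIs each allow shares of cells to be compared at equal depth. Mapt was then found in 15.2% (9.51 to 22.4) of control and 4.55% (2.10 to 8.45) of Mettl3-CKO progenitors, and without thinning in 33.3% and 16.8%. In neurogenic cells the thinned shares were 23.0% (16.2 to 31.0) and 7.95% (4.42 to 13.0). In Müller glia they were 14.6% (10.9 to 19.0) and 11.2% (7.55 to 15.9), which overlapped. Rods, which had few Mapt UMIs, gave the background share, 0.641% and 0.593% at the same depth. The shares of progenitors, neurogenic cells and Müller glia lay well above that background in both libraries.

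**Figure D1:**
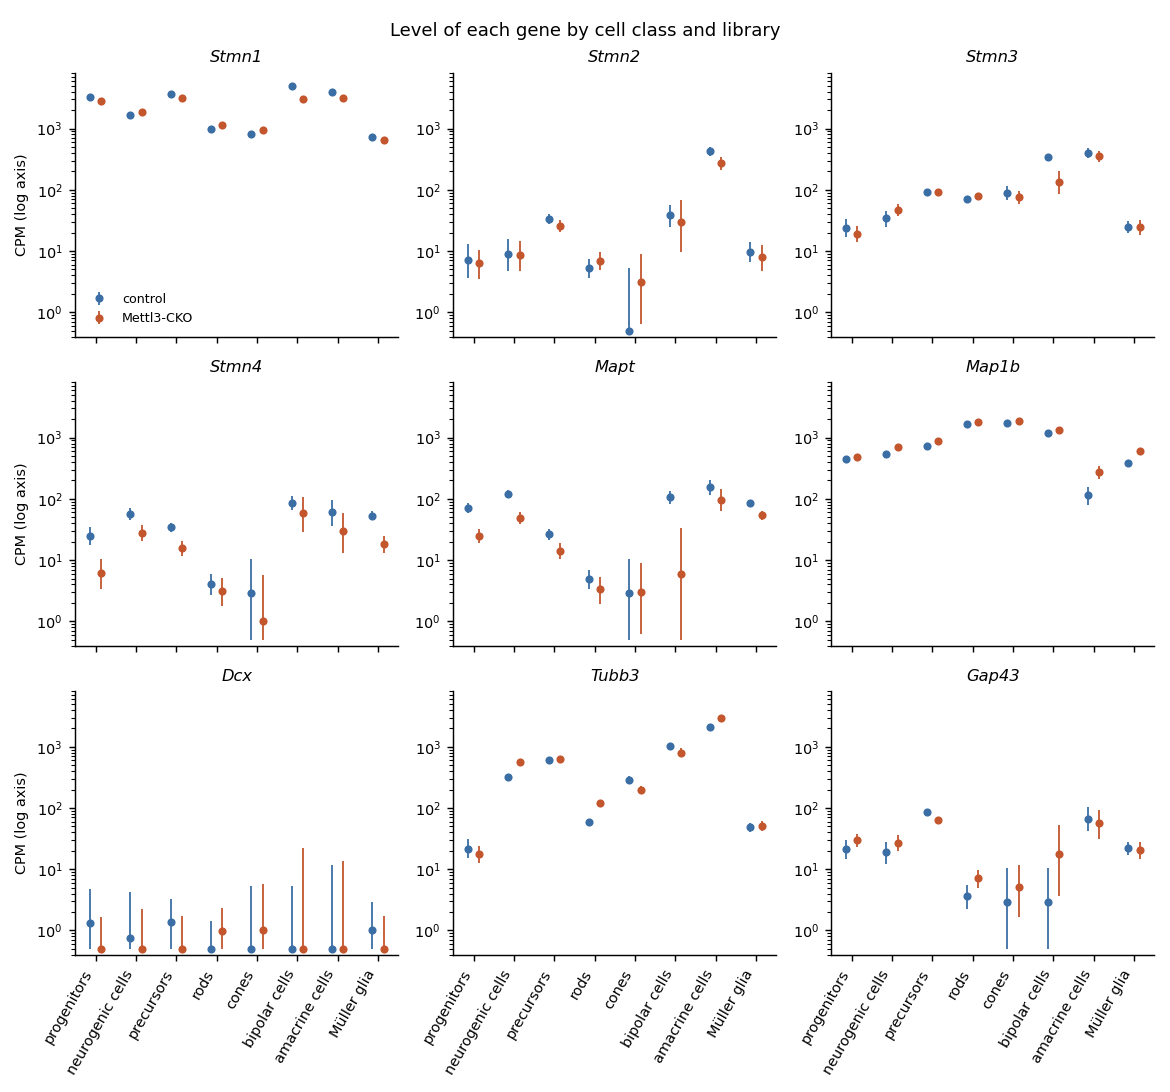
Level of each of the 9 genes (CPM, log axis, values under 0.5 drawn at 0.5) in 8 cell classes of the control (blue) and the Mettl3-CKO library (orange), with exact Poisson 95% intervals of counting error. Mapt and Stmn4 sit lower in the Mettl3-CKO in progenitors, neurogenic cells, precursors and Müller glia, Tubb3 sits higher in rods and neurogenic cells, and Dcx is close to 0 throughout.

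Stmn4 (chromosome 14, 66344296 to 66361680), a stathmin with an amino-terminal membrane anchor, was lower in the same 4 classes. In Müller glia, 158 UMIs gave 53.4 CPM (45.4 to 62.4) in the control, and 39 UMIs gave 18.2 CPM (13.0 to 24.9) in the Mettl3-CKO. The log2 ratio of -1.55 (-2.10 to -1.04) was the 20th lowest of 7045 genes. Neurogenic cells had 57.4 CPM (45.2 to 71.8) and 27.6 CPM (20.1 to 36.9), a log2 ratio of -1.06 (-1.62 to -0.51). Precursors had 34.3 CPM (28.5 to 41.0) and 15.9 CPM (11.9 to 20.8), and this log2 ratio of -1.11 (-1.61 to -0.63) was the 11th lowest of 7734 genes. In progenitors Stmn4 did not reach 100 UMIs, with 38 UMIs (25.1 CPM, 17.8 to 34.4) against 14 (6.27 CPM, 3.43 to 10.5). The log2 ratio there was -2.0 (-3.00 to -1.08). The control order ran from bipolar (86.3 CPM), amacrine (60.4 CPM) and neurogenic cells to Müller glia, with no neighbours among them separated by their intervals, and rods and cones were again nearly without the transcript (4.09 and 2.90 CPM). After thinning, Stmn4 was found in 8.25% (5.46 to 11.9) of control and 4.58% (2.31 to 8.05) of Mettl3-CKO Müller glia, against 0.481% and 0.474% of rods. The thinned shares were 3.03% and 0.505% in progenitors, 7.41% and 4.55% in neurogenic cells and 3.71% and 2.50% in precursors, and the intervals of the 2 libraries overlapped in all 4 classes.

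The other stathmins did not share this direction across classes. Stmn1 (chromosome 4, 134468320 to 134473843), the stathmin of dividing and newborn cells, was the most abundantly counted, with 42376 control and 36796 Mettl3-CKO UMIs. In control cells it was highest in bipolar cells (4952 CPM), followed by amacrine cells (3953), precursors (3726) and progenitors (3232 CPM), and lowest in Müller glia (715 CPM) and microglia (418 CPM). It was lower in Mettl3-CKO progenitors (2788 CPM, log2 ratio -0.21, -0.27 to -0.16), precursors (3204 CPM, -0.22, -0.25 to -0.18), amacrine cells (3108 CPM, -0.35, -0.48 to -0.22) and Müller glia (656 CPM, -0.12, -0.22 to -0.03). It was higher in Mettl3-CKO neurogenic cells (1841 against 1633 CPM, 0.17, 0.09 to 0.25), rods (1133 against 989 CPM, 0.20, 0.14 to 0.25) and cones (948 against 811 CPM, 0.23, 0.07 to 0.38). None of these reached 1.5-fold. The progenitors with at least as many S-phase as G2/M marker UMIs (24 and 39 cells) gave 0.12 (-0.04 to 0.29) and the others (114 and 175) gave -0.24 (-0.30 to -0.18).

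Stmn2 (chromosome 3, 8509360 to 8561606), a stathmin of axon growth and regeneration, and Stmn3 (chromosome 2, 181306459 to 181314500) were highest in amacrine cells. For Stmn3 in the control, amacrine cells were not separated from bipolar cells (1.18-fold, 0.94 to 1.47). Stmn3 was also found in rods and cones, with 88.3 CPM in control and 75.4 CPM in Mettl3-CKO cones. Stmn2 stood at 426 CPM (357 to 504) in control and 270 CPM (211 to 340) in Mettl3-CKO amacrine cells, a log2 ratio of -0.66 (-1.09 to -0.23) from 32 cells in each library. Without the cells of high doublet score it was -0.43, under 1.5-fold. It was below 40 CPM in every other class, with 33.0 and 25.7 CPM in precursors (-0.36, -0.78 to 0.06). Stmn3 stood at 400.4 CPM (334 to 477) and 352 CPM (285 to 431) in amacrine cells (-0.18, -0.59 to 0.21). Its levels in precursors were 91.0 and 91.7 CPM, a log2 ratio of 0.01 (-0.22 to 0.24), and in rods 71.7 and 80.1 CPM (0.16, -0.04 to 0.36). In Müller glia it was at 24.7 and 24.3 CPM. In neurogenic cells it was at 34.0 and 47.2 CPM (0.48, -0.07 to 1.04). The interval of Stmn3 thus included 0 in each whole class compared. It left out 0 in some subsets, with 0.78 (0.18 to 1.38) in neurogenic cells with Xist, 2.60 (0.59 to 5.73) in those over the progenitor limit from 2 and 24 UMIs, and 0.27 (0.03 to 0.51) in rods with Xist. In the bipolar gate it was at 339 CPM in control and 136 CPM in Mettl3-CKO cells.

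Map1b (chromosome 13, 99421446 to 99516540), which encodes a microtubule-associated protein of growing axons, differed in the direction opposite to Mapt. In Müller glia it rested on 1149 and 1298 UMIs, with 388 CPM (366 to 411) in the control and 607 CPM (574 to 641) in the Mettl3-CKO. The log2 ratio was 0.64 (0.53 to 0.76), and with cells thinned to 2000 UMIs it was 0.34, under 1.5-fold. Amacrine cells had 114 CPM (80.1 to 158, 36 UMIs) and 270 CPM (211 to 340, 72 UMIs), a log2 ratio of 1.24 (0.64 to 1.86). Markers of other cells also differed there, with 331 and 559 CPM of Müller glia markers, 203 and 405 CPM of horizontal cell markers and 216 and 379 CPM of endothelial markers, and their part in the result was not tested. The last 2 sets were not limited to the cells they are named for. Endothelial markers were at 636 and 699 CPM in Müller glia, and horizontal cell markers at 250 and 327 CPM in precursors. Map1b was higher by less than 1.5-fold in neurogenic cells (549 to 703 CPM, 0.36, 0.22 to 0.49) and precursors (720 to 870.5 CPM, 0.27, 0.20 to 0.35). Progenitors were at 455 and 474 CPM (0.06, -0.08 to 0.20). Photoreceptors had the highest levels, 1755 CPM in control cones and 1689 CPM in control rods, with 1873 and 1795 CPM in the Mettl3-CKO.

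Tubb3 (chromosome 8, 123411424 to 123422015) had its highest levels in amacrine cells, bipolar cells and precursors in both libraries. Over control progenitors, its level was 14.6-fold (10.2 to 21.5) higher in control neurogenic cells and 28.3-fold (20.1 to 41.2) higher in control precursors. It was highest in amacrine cells, with 2117 CPM (1959 to 2284) in the control and 2935 CPM (2733 to 3148) in the Mettl3-CKO, a log2 ratio of 0.47 (0.32 to 0.62). This ratio was not stable, at 0.14 with cells thinned to 2000 UMIs, -0.0069 in classes drawn from clusters, and 1.13 and 0.095 in the amacrine cells below and above the median of amacrine marker level. Rods had 59.4 CPM (53.4 to 65.8, 363 UMIs) in the control and 118.8 CPM (109.5 to 128.7, 602 UMIs) in the Mettl3-CKO. Their log2 ratio of 1.0 (0.81 to 1.19) was the largest of the 4 members with at least 100 UMIs in rods. In neurogenic cells the levels were 318 CPM (288 to 350) and 562 CPM (526 to 599), a log2 ratio of 0.82 (0.65 to 0.99). With cells thinned to 2000 UMIs it was 0.24, and in classes drawn from clusters 0.17, both under 1.5-fold. The 14 control and 25 Mettl3-CKO neurogenic cells that were also over the progenitor limit had 48.4 and 231 CPM (2.26, 1.26 to 3.43), from 9 and 85 UMIs. Precursors did not differ beyond counting error (616 and 635 CPM, 0.04, -0.04 to 0.13), and cones differed the other way (290 and 199.8 CPM, -0.54, -0.83 to -0.24). The summed cone markers were 17880 CPM in control and 10210 CPM in Mettl3-CKO cones, and the part of this in the result was not tested.

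The level of Tubb3 in control rods could not be told from that in control microglia, which should lack it. The control microglia had 61.3 CPM (30.6 to 110, from 11 UMIs). Mettl3-CKO microglia had 67.5 CPM (38.6 to 110, 16 UMIs), and Mettl3-CKO rods were 1.76-fold above them, beyond counting error. The microglial UMIs came from only 3 of 31 control and 2 of 27 Mettl3-CKO cells, so they do not give a background level for rods. Whether the level in control rods reflects expression was not tested. Microglia had medians of 1493 and 1624 UMIs, and rods had 4291 and 4636. Tubb3 was at 48.7 and 51.4 CPM in Müller glia and at 21.8 and 17.5 CPM in progenitors. In each library the level in progenitors was below that in rods, with counting intervals that did not overlap. After thinning, 8.25% (6.79 to 9.92) of control and 14.8% (12.5 to 17.4) of Mettl3-CKO rods had a Tubb3 UMI, beside 9.09% (0.230 to 41.3) of 11 control and 8.33% (0.211 to 38.5) of 12 Mettl3-CKO microglia. Mettl3-CKO rods also had a lower summed level of 9 rod markers (23027 against 19837 CPM) and a higher level of precursor markers (6039 against 6539 CPM). In the rods below the common median of rod marker level, Tubb3 was at 86.0 and 153 CPM (0.83, 0.62 to 1.05), and in those above it at 32.6 and 55.9 CPM (0.78, 0.36 to 1.20).

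Gap43 (chromosome 16, 42248442 to 42340651) was highest in precursors, with 87.4 CPM (78.0 to 97.6) in control and 63.3 CPM (55.0 to 72.5) in Mettl3-CKO precursors. Amacrine cells, at 66.7 and 56.2 CPM, were not separated from precursors (1.31-fold, 0.84 to 2.15, and 1.13-fold, 0.67 to 2.05). The log2 ratio in precursors was -0.47 (-0.73 to -0.21). In Müller glia it was at 22.0 and 20.6 CPM (-0.10, -0.68 to 0.48). In rods, where it was scarce, 22 UMIs gave 3.6 CPM and 36 UMIs gave 7.11 CPM (0.98, 0.18 to 1.82), the opposite direction to precursors, and this ratio changed sign under 4 alternatives. Its other classes held under 100 UMIs too, among them progenitors with 21.1 and 29.6 CPM (0.49, -0.14 to 1.14) and neurogenic cells with 18.9 and 27.0 CPM (0.52, -0.22 to 1.29). Dcx (chromosome X, 143855842 to 143933311), the gene of doublecortin in migrating neurons, was not resolved at this depth, with 26 control and 15 Mettl3-CKO UMIs in all cells (1.24 and 0.752 CPM). None of the 9 named classes held more than 5 Dcx UMIs in a library.

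**Figure D2:**
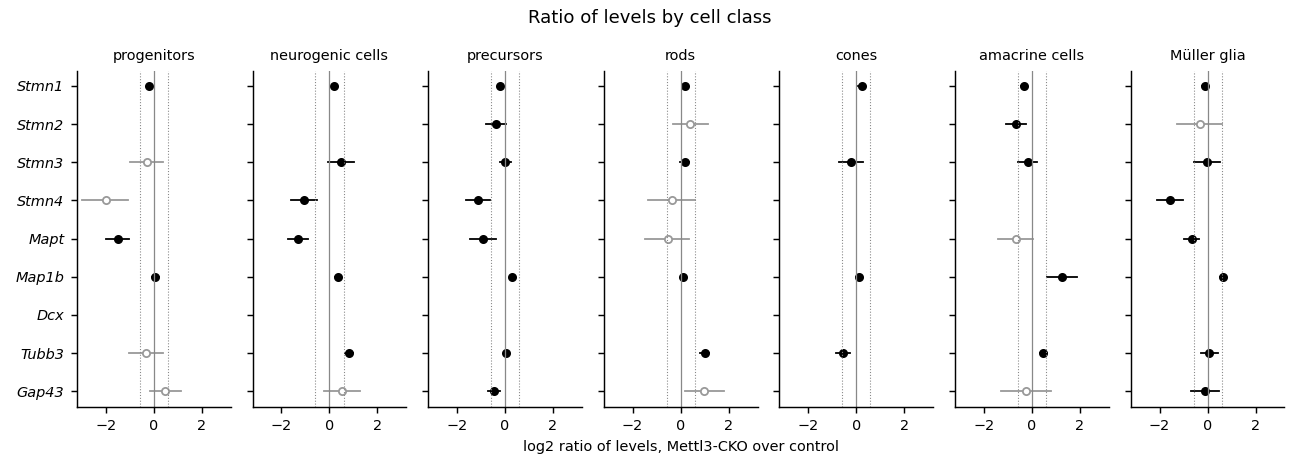
log2 ratio of levels, Mettl3-CKO over control, for each gene in 7 cell classes, with 95% counting intervals; filled points have at least 100 UMIs in the class, open points 30 to 99, and dotted lines mark 1.5-fold. Mapt lies left of the lower line in progenitors, neurogenic cells, precursors and Müller glia, Tubb3 lies right of the upper line in rods and neurogenic cells, and Map1b does so in amacrine cells and Müller glia.

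The members were also counted with a rule of size, a ratio of at least 1.5-fold among genes with at least 100 UMIs in the class, beside all genes that met that minimum. In progenitors 3 members passed the minimum, of which 1 (Mapt) was lower and 0 were higher, where 1.85% of all genes were lower and 5.42% higher. In neurogenic cells 6 passed, 2 lower (Mapt, Stmn4) and 1 higher (Tubb3), against 3.64% and 6.79%. In precursors 8 passed, the same 2 were lower and 0 higher, against 1.18% and 1.76%. In Müller glia 7 passed, with 2 lower and 1 (Map1b) higher, against 3.52% and 6.03%. In rods 4 passed, with 0 lower and 1 (Tubb3) higher, against 1.05% and 2.03%. In amacrine cells 5 passed, with 1 lower (Stmn2) and 1 higher (Map1b), against 4.68% and 3.58%. In cones 4 passed and none reached 1.5-fold, against 2.08% and 4.54%. The list was partly chosen for low ratios of Mapt and Stmn4, so nothing is read from their shares. A gene that is low in one library could pass the minimum only through the other, so the members that passed do not stand for all 9.

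The medians of the members that passed lay between -0.29 (precursors) and 0.26 (neurogenic cells) on the log2 scale. Over all genes the medians lay between -0.03 and 0.04. Mapt and Stmn4, which were chosen for low ratios, count among the members wherever they passed. Nothing is therefore read from the distance between the member medians and those over all genes. In progenitors the median of the members was -0.21, in Müller glia -0.10, in rods 0.18, in cones -0.07 and in amacrine cells -0.18. Members lower and members higher than in the control by the rule of size stood side by side in neurogenic cells, amacrine cells and Müller glia.

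**Figure D3:**
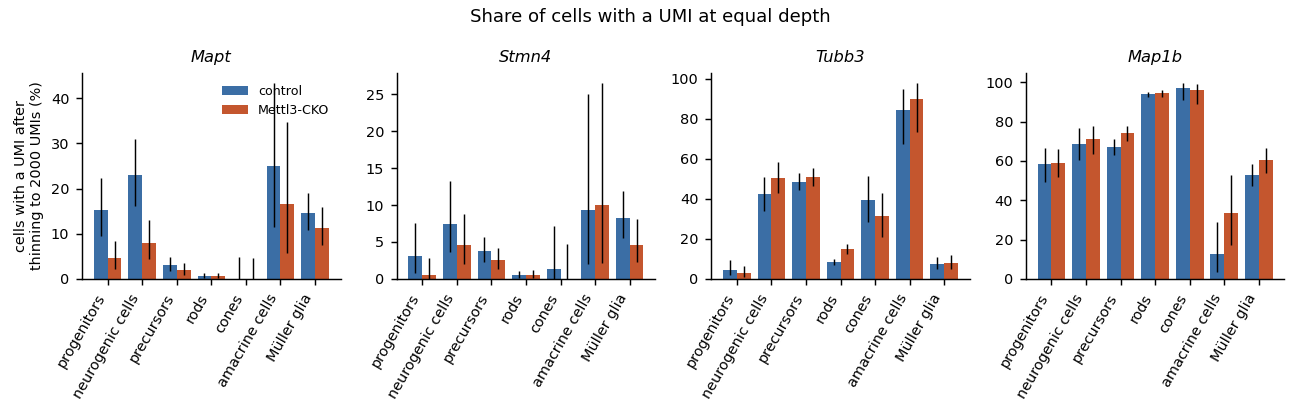
Share of cells with at least 1 UMI of Mapt, Stmn4, Tubb3 or Map1b after each cell was thinned to 2000 UMIs (bars, control blue, Mettl3-CKO orange), with exact binomial 95% intervals; cells under 2000 UMIs are left out. Mapt is found in 15.2% of control and 4.55% of Mettl3-CKO progenitors and in 23.0% and 7.95% of neurogenic cells, and Tubb3 in 8.25% and 14.8% of rods.

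The ratios of Mapt and Stmn4 were examined in subsets of cells. Mettl3-CKO cells of at least 4000 UMIs were split by whether they held an Xist UMI, and each part was set against the control cells of at least 4000 UMIs. In progenitors Mapt was at 29.3 CPM in the 105 cells with Xist and at 21.1 CPM in the 76 without, against 71.5 CPM in the control (-1.28, -1.87 to -0.73 and -1.76, -2.55 to -1.05). In neurogenic cells these ratios were -1.38 (-1.90 to -0.90) and -1.20 (-1.76 to -0.67), and in Müller glia -0.65 (-1.06 to -0.25) and -0.64 (-1.13 to -0.18). Stmn4 in Müller glia gave -1.85 (-2.62 to -1.15) and -1.20 (-1.95 to -0.52), and in precursors -1.15 (-1.77 to -0.57) and -1.02 (-1.77 to -0.35). Map1b in Müller glia gave 0.64 (0.51 to 0.77) and 0.58 (0.43 to 0.73), and Tubb3 in rods gave 0.97 (0.75 to 1.18) and 0.79 (0.48 to 1.09). Both kinds of Mettl3-CKO cells differed from the control in the same direction for these genes in the classes named. Mapt and Stmn4 were chosen for low ratios in the same cells, so nothing is read from the direction they kept. The direction was not shared everywhere, since Tubb3 in precursors gave 0.11 (0.02 to 0.21) with Xist and -0.10 (-0.23 to 0.02) without, and Map1b in progenitors gave 0.14 (-0.02 to 0.30) and -0.07 (-0.25 to 0.11). The control cells were shared by both ratios. Stmn1 in rods differed between them, with 0.25 (0.19 to 0.31) for cells with Xist and -0.13 (-0.23 to -0.03) for cells without.

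Each class was also split at the median of its own marker level over both libraries. Mapt in progenitors was at 53.6 and 26.8 CPM in the cells below the median of proliferation UMIs (-1.0, -1.75 to -0.26) and at 84.8 and 23.3 CPM in those above it (-1.86, -2.58 to -1.19). The summed markers of progenitors were nearly equal in the 2 libraries (6273 and 6213 CPM), as were the neurogenic (58.1 and 52.9 CPM) and precursor markers (119 and 122 CPM) in these cells. Rod markers were at 197 and 123 CPM and ganglion cell markers at 23.1 and 10.3 CPM in the same progenitors, lower in the Mettl3-CKO as Mapt and Stmn4 were, and their part in the result was not tested. In Müller glia, the summed Müller markers were 8058 CPM in the control and 5672 CPM in the Mettl3-CKO, and the progenitor markers 108 and 189 CPM. Of the Müller markers, Crym (2820 and 1450 CPM), Rlbp1 (1642 and 937), Slc1a3 (1261 and 1004), Dkk3 (680 and 539) and Vcam1 were lower in the Mettl3-CKO. Sox9 (1102 and 1149 CPM), Glul (452 and 480), Kcnj10, Clu and Aqp4 were not lower, so the sum and the split by it mostly follow Crym and Rlbp1. The 3 astrocyte markers were at 104 and 31.3 CPM, and the part of these differences in the results was not tested. Mapt in the cells below the median of Müller marker level was at 59.1 and 51.3 CPM (-0.20, -0.70 to 0.30) and in those above it at 99.9 and 59.4 CPM (-0.75, -1.29 to -0.24). Its difference in Müller glia was thus not resolved among cells of low Müller marker level. Stmn4 in Müller glia was lower on both sides of the median, at 30.9 and 12.7 CPM (-1.29, -2.18 to -0.43) and at 66.0 and 31.3 CPM (-1.08, -1.84 to -0.39). Map1b was higher in both, at 385 and 665 CPM (0.79, 0.62 to 0.96) and at 390 and 470.5 CPM (0.27, 0.07 to 0.47).

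Neurogenic cells of the 2 libraries differed in more than the 9 genes. Of the neurogenic genes of the gate, Atoh7 was at 77.8 CPM in the control and 343 CPM in the Mettl3-CKO. Neurog2 was at 660 and 708 CPM, while Dll1 (336 and 285), Dll4 (57.4 and 32.5) and Olig2 (233 and 166) were lower in the Mettl3-CKO. The summed Müller markers of neurogenic cells were 3355 CPM in the control and 2096 CPM in the Mettl3-CKO. Their progenitor markers were at 928 and 1552 CPM, their horizontal cell markers at 87.6 and 183 CPM and their neurogenic markers at 1364 and 1533 CPM. The part of this in the ratios of Mapt, Stmn4 and Tubb3 was not tested. Without the cells over the progenitor limit, Mapt had a log2 ratio of -1.21 (-1.64 to -0.79), Stmn4 of -0.98 (-1.61 to -0.38) and Tubb3 of 0.86 (0.69 to 1.04). In precursors, the cells below the median of precursor marker level had Mapt at 38.0 and 16.8 CPM (-1.18, -1.85 to -0.54) and Stmn4 at 52.5 and 19.0 CPM (-1.47, -2.08 to -0.89). Those above it had Mapt at 15.1 and 10.8 CPM (-0.48, -1.47 to 0.46) and Stmn4 at 16.2 and 12.1 CPM (-0.42, -1.35 to 0.48), with intervals that included 0. The 2 genes were thus highest, and their ratios farthest from 0, in the precursors with fewer precursor marker UMIs.

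**Figure D4:**
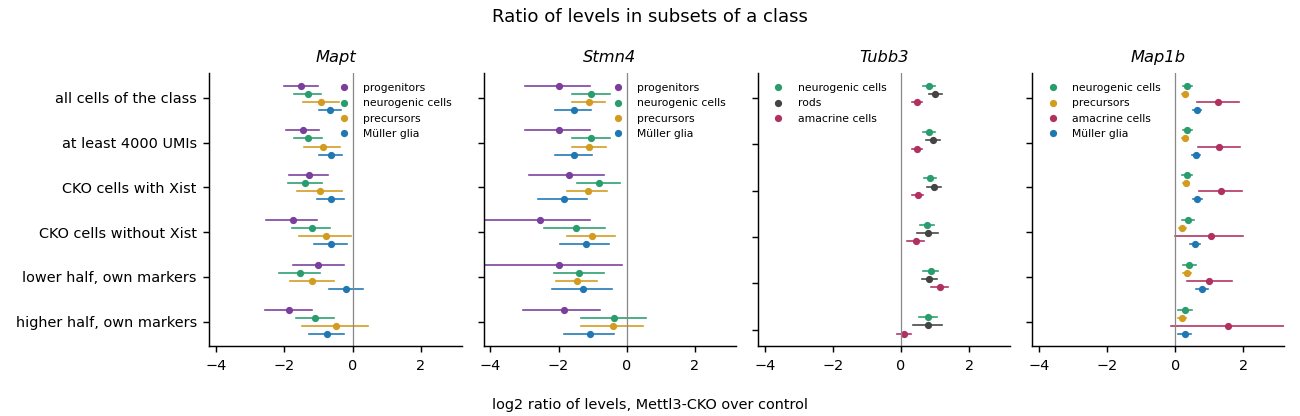
log2 ratio of levels, Mettl3-CKO over control, of Mapt, Stmn4, Tubb3 and Map1b in all cells of a class and in subsets (rows; colours mark classes), with 95% counting intervals. The ratios of Mapt and Stmn4 lie below 0 in cells with and without Xist. Among the ratios of Mapt and Stmn4, that of Mapt in Müller glia of low own marker level (-0.20) lies nearest to 0.

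The Müller glia of the Mettl3-CKO library were not uniform in Mapt and Map1b. Cdkn1a and Phlda3, targets of the stress-activated transcription factor p53, gave a UMI in 82 of the 241 Mettl3-CKO and in 41 of the 322 control Müller glia. In the Mettl3-CKO, the cells with such a UMI had Mapt at 32.4 CPM and those without at 65.7 CPM, a log2 ratio of -1.02 (-1.72 to -0.37). Map1b was at 741 CPM in the cells with and 531 CPM in the cells without (0.48, 0.32 to 0.64). In the control, the same split gave 74.7 and 87.1 CPM of Mapt (-0.22, -0.79 to 0.30) and 389 and 388 CPM of Map1b (0.00, -0.24 to 0.23). The difference between the libraries in this split was not tested. In Mettl3-CKO progenitors, Map1b differed in the opposite direction, with 384 CPM in the 93 cells with and 565 CPM in the 121 cells without such a UMI (-0.56, -0.74 to -0.38). Mapt gave -0.73 (-1.35 to -0.13) in control and -0.32 (-1.14 to 0.49) in Mettl3-CKO progenitors, so that the interval left out 0 in the control there and in the Mettl3-CKO among Müller glia. In control precursors Mapt was higher in the 29 cells with such a UMI (1.71, 0.81 to 2.52), and in those of the Mettl3-CKO the ratio was -0.74 (-3.07 to 0.90). In Müller glia, Stmn4 was at 24.7 and 14.6 CPM in the Mettl3-CKO cells with and without (0.75, -0.23 to 1.74) and was not resolved. The median depths of the Müller glia were 8811.5 and 8449 UMIs in the Mettl3-CKO and 10298 and 8851 in the control.

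**Figure D5:**
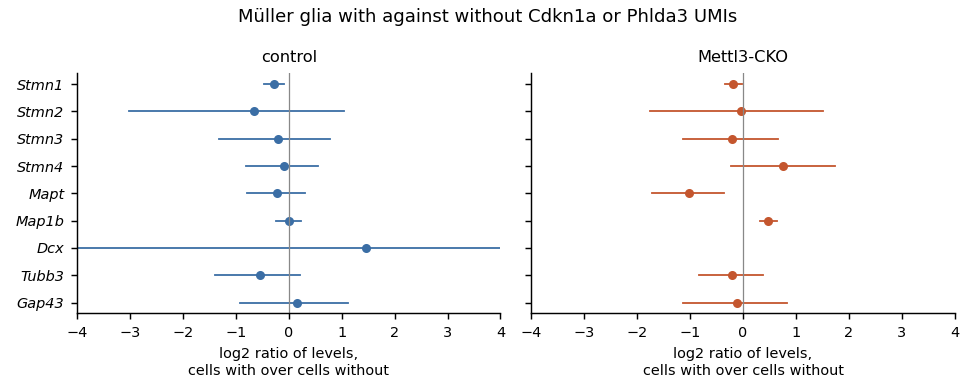
log2 ratio of levels in Müller glia with a Cdkn1a or Phlda3 UMI over those without, within the control (left) and within the Mettl3-CKO library (right), with 95% counting intervals cut at the axis limits; a gene at 0 UMIs in either part has no point. In the Mettl3-CKO library Mapt lies below 0 (-1.02) and Map1b above it (0.48), while both intervals of the control include 0.

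Another list, of 66 genes of microtubules and neurites (tubulins, microtubule-associated proteins, collapsin response mediators, motors and dynein regulators, severing enzymes, growth cone membrane proteins and neurofilaments) was read in the same way. In progenitors 41 of them had at least 100 UMIs, of which 0 were lower by 1.5-fold and 2 higher, beside 1.85% and 5.42% of all genes, with a median log2 ratio of -0.02 beside 0.04. The 2 were Map1a, a microtubule-associated protein related to Map1b (26.4 and 47.9 CPM, 0.86, 0.32 to 1.42), and Basp1, a growth cone membrane protein (507 and 837 CPM, 0.72, 0.60 to 0.85). All 9 tubulins that passed stayed within 1.5-fold. In Müller glia 42 passed, 4 lower and 2 higher, beside 3.52% and 6.03% of all genes, with a median of 0.01 beside 0.04. Lower were Tubb2b, a beta-tubulin of newborn neurons (1037 and 651 CPM, -0.67, -0.76 to -0.58), Tppp3 (73.7 and 47.7 CPM, -0.63), and the collapsin response mediators Dpysl3 (156 and 104 CPM, -0.59) and Dpysl4 (313 and 196 CPM, -0.67). Higher were Map1a (15.2 and 33.2 CPM, 1.13, 0.57 to 1.70) and Map1s (27.4 and 43.9 CPM, 0.68, 0.24 to 1.13). In neurogenic cells 40 passed, with 4 lower and 3 higher, beside 3.64% and 6.79% of all genes. In precursors 50 passed, with 0 lower and 2 higher, beside 1.18% and 1.76%, and in rods 47, with 0 and 4, beside 1.05% and 2.03%.

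Across the 8 classes in both libraries (16 points, which share libraries and differ in depth), the genes were compared by the Pearson correlation of log2(CPM + 1), as a description. The points hold the low ratios for which Mapt and Stmn4 were chosen, and also the bipolar cells, which were not compared between libraries. Nothing is therefore read from the correlations of Mapt and Stmn4 given here. Mapt and Stmn4 had a correlation of 0.79, Stmn3 and Tubb3 of 0.86, and Mapt and Map1b of -0.82. Among 9884 other genes, the ones most like Mapt were Tspan6 (0.96), Fam49b (0.95) and Chmp1a (0.94), and those most like Stmn4 were Fsd1 (0.94), Bnip3 and Kif5c (0.92 each). Map1b was nearest to Cyld (0.96), Slc6a8 and Dedd2 (0.95 each). Tubb3 was nearest to Tmeff1 (0.97), Pcdhb16 and Csnk1e (0.95 each), and Stmn3 to Cabp1 (0.98), Iqsec3 and Bmi1 (0.96 each). Stmn1 was nearest to Lsm8 (0.94), Stmn2 to Cnot2, Mgat5b (0.95 each) and Nrxn2 (0.94), and Gap43 to Robo1 (0.90), Tpt1 (0.89) and Nfib (0.88). Dcx, with its few UMIs, was nearest to Rab30 (0.72), Plag1 (0.66) and Ahsa1 (0.65).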

How the data were processed

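Single-cell RNA sequencing libraries of 1 control and 1 Mettl3-CKO pool were made with a droplet-based 3′ kit. The deposited values are raw UMI counts per gene and cell, which the authors obtained by trimming reads with fastp and counting with Cell Ranger 3.1.0 on GRCm38, and which they did not normalize. Whether the counting used strand was not given in the sources used here. Of the overlapping genes that the files list, Gm11659 (antisense to Mapt) and Gm20388 (over Tubb3) held 0 UMIs. The matrices as read ended early: 8885792 of 13377095 entries and 7874177 of 17695523 were read, giving 3994 of 5995 and 3109 of 6992 cells, and the other cells were not analysed here. The filter of the study (over 200 genes, under 20% mitochondrial UMIs) was not met by 237 and 86 cells, which were kept in the main results.

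Cells were gated on marker UMIs: progenitors at least 10 UMIs of 3 of 12 markers, neurogenic cells 5, precursors 5 each of Neurod4 and Otx2 with under 20 rod UMIs, rods 40 of 3, cones 20 of 2, bipolar cells 5 of 2, amacrine cells 5 of 2, Müller glia 20 of 3 and microglia 10 of 2. Limits were set after marker UMIs had been seen. Neurogenic cells took precedence over progenitors. Near the limit (under 1.5 times it) were 22 and 40 progenitors, 51 and 67 neurogenic cells and 40 and 51 Müller glia. UMIs were summed per class and divided by the non-mitochondrial total. A ratio of 1.5-fold with at least 100 UMIs was the rule of size. Doublet scores came from Scrublet in scanpy 1.11.5, whose own threshold marked only 60 and 8 cells, so the cells at or above the 95th percentile of scores in each library (224 and 170, with ties) were left out in an alternative. Clusters for another alternative used leidenalg 0.10.2 at resolution 1.5. Python 3.11.15, numpy 2.4.6 and scipy 1.17.1 were used, and the ratios were tested on simulated data. The named genes were the 9 members, up to 4 genes of the list in each direction in progenitors and Müller glia, and the 3 most like each member, of which some for Stmn1 are not reported here. The members, lists and markers were chosen with earlier results of these data known. Alternatives were another scaling, cell weights, limits, depth, doublets, the cell filter, clusters, a gate without Rlbp1, the Xist split, and, added after seeing the data, splits by phase, cycling and own marker level.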

Additional observations from a re-analysis of the deposited data

Results flagged for a closer look

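Outside the comparisons of the 9 genes, 1 signal stood out. Xist was at 1544 CPM in the Mettl3-CKO library (30811 UMIs) and at 1.53 CPM in the control library (32 UMIs), while the Y-linked Eif2s3y was at 38.4 and 107 CPM. Among Mettl3-CKO progenitors 115 of 214 cells held an Xist UMI, among Müller glia 143 of 241 and among control cells of these classes 0 of 138 and 0 of 322. The pools thus differed in Xist and in Y-linked transcripts as well as in genotype, and for results not split by Xist these cannot be told apart.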

How the results depend on the processing

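Each ratio of a member with at least 50 UMIs in a class was recomputed under the alternatives, 560 values in all, of which 479 stayed within the counting interval of the reported ratio, 77 moved outside it and 4 changed the sign of a reported ratio past 1.5-fold. The 4 were Gap43 in rods (0.98 as reported from 58 UMIs), at -0.058 as a mean over cells, -0.60 in classes from clusters, -0.25 in cells without Xist and -0.23 in rods above the median of rod marker level. Mapt kept its sign in progenitors (-1.86 to -1.0), neurogenic cells (-2.19 to -0.77), precursors (-1.18 to -0.48) and Müller glia (-0.86 to -0.20), and Stmn4 did in Müller glia (-1.85 to -0.92), neurogenic cells (-1.48 to -0.39) and precursors (-1.47 to -0.42). Both genes were chosen for low ratios in the same cells, so nothing is read from these signs. Below 1.5-fold fell Mapt in Müller glia after thinning (-0.27) and in cells below the median of Müller marker level (-0.20), Mapt in precursors after thinning (-0.54) and above the median of their markers (-0.48), Stmn4 in neurogenic cells (-0.39) and precursors (-0.42) above that median, Stmn2 in amacrine cells without high doublet scores (-0.43) and above the median of their markers (-0.52), Tubb3 in neurogenic cells after thinning (0.24) and in clusters (0.17), and Map1b in Müller glia after thinning (0.34), in clusters (0.51), above the median of Müller marker level (0.27), in cells without Xist (0.58) and under median-of-ratios scaling (0.58). The cause was not tested. Tubb3 in rods stayed between 0.78 and 1.16, and Tubb3 in amacrine cells ranged from -0.0069 to 1.13. Of the medians over members, that of progenitors went from -0.21 to -0.35 after thinning, -0.27 in clusters, 0.12 in cells with more S-phase UMIs and -0.11 below the median of proliferation UMIs, and that of neurogenic cells from 0.26 to 0.018 in clusters and -0.0057 in cells without Xist. With a minimum of 30 UMIs, more genes of the list passed. They were 51 in progenitors, 49 in cones, 37 in amacrine cells and 52 in Müller glia, in place of 41, 33, 18 and 42. In progenitors 4 were higher in place of 2, and in cones 4 were lower and 3 higher in place of 1 and 1. In amacrine cells 5 were lower and 2 higher in place of 2 and 0, and in Müller glia 7 and 3 in place of 4 and 2. The share of all genes past 1.5-fold was not computed at this minimum, so nothing is read from these counts. No paired analysis was possible because each group held 1 library. Depth limits Dcx in all classes and Stmn4 in progenitors, and cells of amacrine type were too few (6 without Xist) for that split.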
